A study of Mus musculus with 8 samples.

Results

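The genes described here are 8 transcription factors of the neural crest and the melanocyte lineage: Sox10, Sox9 and Sox8 of the SoxE group, Sox5 and Sox6 of the SoxD group, Sox2 of the SoxB group, the paired-box factor Pax3 and the forkhead factor Foxd3. They were found by gene symbol among the 54418 Ensembl genes of the deposited tables, all 8 had an entry, and all 8 passed the filter on low counts that left 16011 genes for testing. They were measured by RNA sequencing in 8 libraries of melanocyte stem cells from mouse dorsal skin at postnatal day 21, 4 of them Bmi1-deleted and 4 control. The Bmi1-deleted mice carried Bmi1fl/fl, Dct-rtTA, TRE-H2B-GFP and Tyrosinase-Cre, in which a tyrosinase promoter drives Cre recombinase in the pigment lineage. The control mice carried Bmi1fl/fl, Dct-rtTA and TRE-H2B-GFP without Cre. Both groups had a mixed C57Bl-6;129Sv background and were fed doxycycline pellets, with which the Dct-driven transactivator switches on histone-bound GFP. GFP-positive, DAPI-negative cells without autofluorescence were sorted, more than 10000 per sample, and each library was made from 1 ng of total RNA. The labels do not tie the 4 replicates of a group to separate animals. The p-values below therefore rest on the spread among these libraries, which may be technical.

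Sox proteins bind DNA through an HMG box. Sox10 is needed in neural crest cells for both the pigment and the glial lineage, and in melanocytes it acts with Pax3 on the promoter of Mitf, the central regulator of pigment genes. The same Sox10 activates myelin genes in Schwann cells, so its targets differ with the cell type. Foxd3 is known in embryonic neural crest as a factor that holds back Mitf and the pigment fate. In hair follicle melanocyte stem cells Pax3 has been described as keeping cells committed but undifferentiated.

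The SoxE genes are close paralogs, and their most similar stretch of coding sequence, in the HMG box, is shown because reads from it could be shared between them. The windows of 90 bases lie in 1 coding exon each, at chr15:79163309-79163398 on the minus strand for Sox10, chr11:112782906-112782995 on the plus strand for Sox9 and chr17:25570130-25570219 on the minus strand for Sox8 (mm10, GENCODE M21). They are written 5′ to 3′ in the direction of transcription, with bases identical in all 3 genes in capitals.
Sox10: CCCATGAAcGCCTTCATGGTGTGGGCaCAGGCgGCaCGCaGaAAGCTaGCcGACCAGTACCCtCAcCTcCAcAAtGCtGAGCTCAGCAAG
Sox9: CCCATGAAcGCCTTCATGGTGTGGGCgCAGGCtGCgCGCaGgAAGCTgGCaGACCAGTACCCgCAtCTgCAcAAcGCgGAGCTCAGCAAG
Sox8: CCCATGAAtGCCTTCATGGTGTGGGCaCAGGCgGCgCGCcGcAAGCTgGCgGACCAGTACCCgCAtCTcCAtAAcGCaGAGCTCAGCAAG
Of the 90 bases, 76 (84.4%) were identical in all 3 genes, and the longest unbroken run of identity was 17 bases. The SoxD pair is shown in the same way, at chr6:143841205-143841294 for Sox5 and chr7:115489694-115489783 for Sox6, both on the minus strand, with bases identical in both in capitals.
Sox5: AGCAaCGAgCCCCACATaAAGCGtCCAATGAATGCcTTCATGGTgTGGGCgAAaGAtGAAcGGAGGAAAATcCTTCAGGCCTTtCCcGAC
Sox6: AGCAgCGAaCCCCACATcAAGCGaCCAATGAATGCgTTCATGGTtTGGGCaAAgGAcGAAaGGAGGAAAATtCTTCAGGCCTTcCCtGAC
This pair matched at 77 of 90 bases (85.6%), with a longest run of 11. Within these windows, chosen for identity across all genes of the group, mismatches recur at short intervals. Over whole transcripts, the share of distinct 31-base stretches that also occur in a transcript of another gene was 0.822% for Sox10, 1.12% for Sox9, 0.0963% for Sox8, 0.346% for Sox5, 0% for Sox6, 0.888% for Sox2, 1.00% for Pax3 and 5.54% for Foxd3. Sox9 and Sox10 shared 25 such stretches with each other, so this pair has runs of identity longer than the 17 bases common to all 3 SoxE genes. Of those of Foxd3, 59 lay in Gm23366, a miRNA gene annotated inside Foxd3 on the same strand that had 0 counts in all 8 libraries.

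Libraries held 8882656 to 10368174 counts. Bmi1 itself, the Polycomb gene targeted in the mice (ENSMUSG00000026739), had 627, 713, 626 and 607 counts in Bmi1-deleted libraries 1 to 4, against 796, 743, 705 and 859 in control libraries 1 to 4. The counts overlapped, and after scaling it had 69.6 ± 0.880 CPM in Bmi1-deleted libraries and 83.4 ± 10.0 CPM in control libraries, without overlap, a log2 change of −0.26 with a standard error of 0.12 (adjusted p = 0.607). By the deposited TPM, which divide by transcript length, the difference was larger, 13.4 ± 4.84 in Bmi1-deleted libraries and 30.4 ± 6.14 in control libraries. On log2(TPM + 1), where the median of all genes was −0.18, it was −1.17 with a standard error of 0.28 (limma, adjusted p = 0.616). With TPM rescaled after leaving out 2 ribosomal genes, Bmi1 had 81.3 ± 25.5 in Bmi1-deleted libraries and 160 ± 25.2 in control libraries. Why TPM and counts differed was not tested. Of the 16011 tested genes, 15 passed at an adjusted p under 0.05 (0.0937%), 14 higher in Bmi1-deleted libraries (0.0874%) and 1 lower (0.00625%). Without control library 1 the count was 45, and without control library 2 it was 8. With the replicate number as a block 386 passed (2.41%), 273 higher (1.71%) and 113 lower (0.706%). Melanocyte genes were read in every library, Dct with 18966 to 57022 counts, and so were Schwann cell and glial genes, whose 20 listed members summed to 3861 to 9113 CPM. All 12 melanocyte markers passed the filter and summed to 4533 to 14526 CPM, while fibroblast markers summed to 4435 to 16904 CPM, more than the melanocyte markers in Bmi1-deleted libraries 1, 2 and 3. RNA of genes listed as markers of other cells was thus read beside that of melanocyte genes. Among the fibroblast markers the collagen genes Col3a1 and Col1a1 were the most abundant. Which cells this RNA came from was not tested.

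Per length of transcript the 8 genes spanned a wide range, with Sox10 highest and Sox9 lowest. These levels are TPM, abundance per length of transcript, rescaled after leaving out 2 ribosomal genes, because Gm23935 alone took 73.75% to 85.56% of the deposited TPM. Sox10 averaged 355 rescaled TPM over the 8 libraries, with a range of 281 to 403, and Pax3 followed with 199.6 and a range of 128 to 238. Sox10 lay above Pax3 in 8 of 8 libraries and Pax3 lay above Sox6 in 8 of 8, so the first 2 places were the same in every library. Sox6 came next at 91.7 rescaled TPM, above Foxd3 at 72.8 in 7 of 8 libraries. Foxd3 and Sox5, at 72.8 and 70.0, could not be ordered, since Foxd3 was the higher in 4 of 8 libraries. Sox5 exceeded Sox2 (56.5) in 6 of 8 libraries, Sox2 exceeded Sox8 (37.2) in 7 of 8, and Sox8 exceeded Sox9 (16.9) in 7 of 8. By counts, which favour long transcripts, Sox10 had a higher mean than 98.4% of tested genes, Pax3 than 98.1%, and Sox8, the lowest by this measure, than 56.1%.

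**Figure D1:**
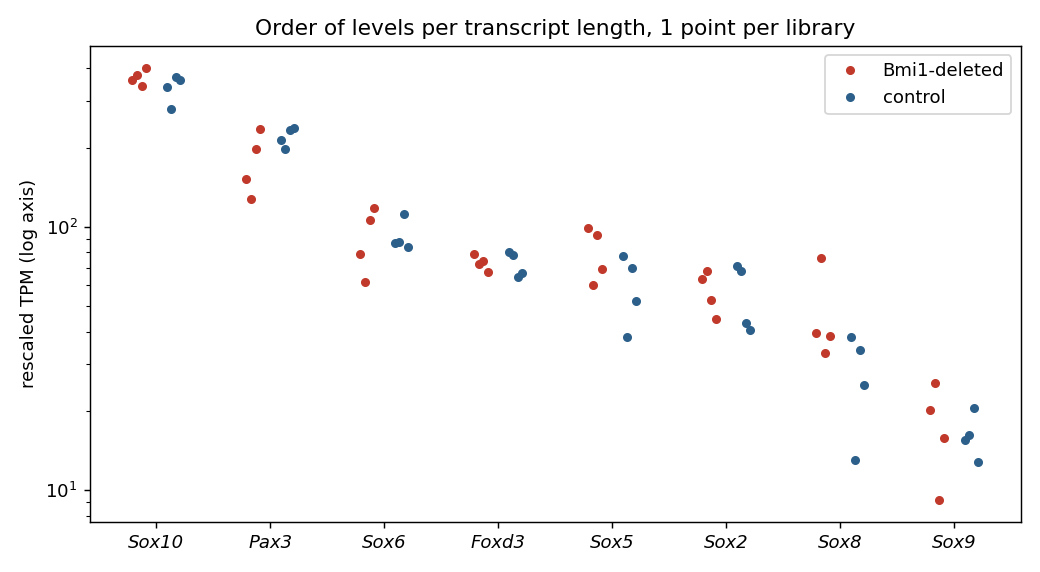
Rescaled TPM (log axis) of each gene in each library, Bmi1-deleted points left of control points, genes in order of their mean over the 8 libraries. Sox10, from 281 to 403, lies above Pax3 in every library, while the range of Foxd3 lies inside that of Sox5.

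Within the SoxE group, transcripts of Sox10 were by far the most abundant. Sox10 made up 85.5% ± 4.61 of the summed SoxE TPM in Bmi1-deleted libraries and 88.7% ± 2.17 in control libraries (SD, n = 4 each). Sox8 made up 10.6% ± 3.55 in Bmi1-deleted libraries and 7.03% ± 2.33 in control libraries. Sox9 held 3.98% ± 1.33 in Bmi1-deleted libraries and 4.29% ± 0.898 in control libraries.

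Between the groups, 0 of the 8 genes rose and 0 fell at an adjusted p under 0.05 in edgeR's quasi-likelihood test, and the same held with the replicate block, with DESeq2 and with limma on log2(TPM + 1). At an unadjusted p under 0.05 there was 1 of 8, Sox8, beside 8.27% of all tested genes. By CPM, none of the 8 had groups that did not overlap, beside 5.18% of all tested genes. The median log2 change of the 8 genes was 0.08, beside 0.01 for all tested genes, with 6 of 8 above 0 and a range of −0.30 to 0.55. Fold changes below are Bmi1-deleted over control on the log2 scale from this fit, and levels are CPM, counts relative to the library total, scaled by TMM, each mean with its SD over 4 libraries. The intervals are 95% intervals. They rest on the spread among these libraries, which may be technical, so they may be too narrow for a change between genotypes.

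**Figure D2:**
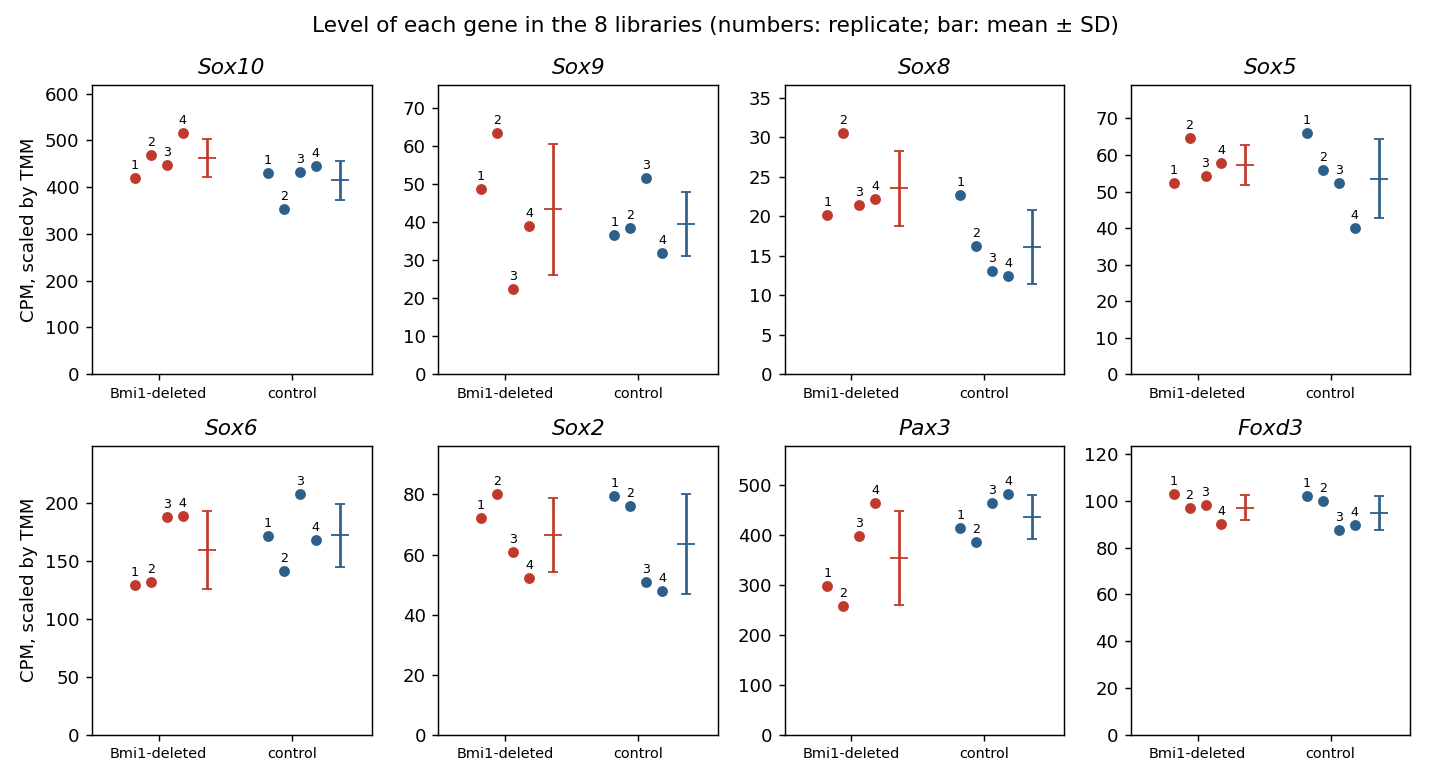
CPM of each gene in each library, Bmi1-deleted left and control right, with the replicate number beside each point and a bar for mean ± SD (n = 4). The groups overlap for all 8 genes, and Sox8 and Pax3 have the means that lie farthest apart on the log scale.

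Sox10 (ENSMUSG00000033006, chromosome 15, 79154908 to 79165240) had 418.9, 469.7, 448.5 and 515.7 CPM in Bmi1-deleted libraries 1 to 4, against 429.8, 353.4, 432.2 and 444.4 in control libraries 1 to 4. Bmi1-deleted libraries 2, 3 and 4 lay above all 4 control libraries, and the groups overlapped through Bmi1-deleted library 1, below 3 of the controls. Its mean was 463 ± 40.7 CPM in Bmi1-deleted libraries and 415 ± 41.5 CPM in control libraries, a log2 change of 0.16 with a standard error of 0.12 (adjusted p = 0.818). The interval ran from −0.10 to 0.42, and the counts behind it were 3431 to 4728 per library. The log2 change was 0.32 with the fibroblast level of each library as a covariate and −0.09 on log2(TPM + 1), where the median of all genes was −0.18.

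Sox9, a stem cell factor of hair follicle keratinocytes that is also induced in melanocytes by ultraviolet light (ENSMUSG00000000567, chromosome 11, 112782224 to 112787760), had 48.8, 63.4, 22.4 and 38.9 CPM in Bmi1-deleted libraries 1 to 4, against 36.6, 38.3, 51.5 and 31.9 in control libraries. Bmi1-deleted libraries held both the highest and the lowest value, and the control values lay between them. The log2 change was 0.13 with a standard error of 0.27 and an interval of −0.46 to 0.72 (adjusted p = 0.958). It was the least even of the 8 genes, with an SD of 0.46 on the log2 scale over all libraries. The profile nearest to that of Sox9 among 9190 genes was that of Col17a1, a collagen of basal keratinocytes. Bulge and basal keratinocyte markers summed to 1909, 1966, 954 and 1293 CPM in Bmi1-deleted libraries 1 to 4, against 1455, 1356, 1638 and 1540 in control libraries. Their lowest sum, in Bmi1-deleted library 3, was in the library with the lowest Sox9, and their highest, in Bmi1-deleted library 2, in the library with the highest. The control libraries did not share this order: library 3 was highest in both, but library 2 had the lowest sum and library 4 the lowest Sox9. The part of keratinocyte RNA in the Sox9 level was not tested.

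Sox8, the third SoxE gene, expressed in neural crest and glia (ENSMUSG00000024176, chromosome 17, 25565892 to 25570686), had 20.1, 30.5, 21.4 and 22.1 CPM in Bmi1-deleted libraries 1 to 4, against 22.6, 16.2, 13.1 and 12.4 in control libraries. All Bmi1-deleted values lay above those of control libraries 2, 3 and 4, and control library 1 lay inside the Bmi1-deleted range. Its mean was 23.5 ± 4.74 CPM in Bmi1-deleted libraries and 16.1 ± 4.67 CPM in control libraries, a log2 change of 0.55 with a standard error of 0.24 and an interval of 0.03 to 1.06. The edgeR quasi-likelihood p was 0.0386 before adjustment and 0.575 as an adjusted p, so the difference did not pass over all genes (adjusted p = 0.303 with the replicate block). Summed Schwann cell and glial genes, with the values given for Sox2, were highest in Bmi1-deleted library 2, as Sox8 was, and ranked the control libraries in the same order. The Bmi1-deleted libraries did not share the whole order: library 1 had the second highest sum but the lowest Sox8. With the Schwann cell and glial level as a covariate, a fit chosen after the data were seen, the log2 change of Sox8 was 0.24 (standard error 0.26). With the melanocyte level it was 0.25 (standard error 0.32). Both levels differed between the groups, so these fits cannot tell genotype from cell content. Sox8 was the gene with the fewest reads of the 8, 110 to 307 per library. The antisense gene 2810468N07Rik overlaps it on the other strand and had 32, 85, 20 and 25 counts in Bmi1-deleted libraries, against 55, 27, 22 and 3 in control libraries. The sources used here do not give the strand setting of the counting, so reads of this pair may not be separated.

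Among the SoxD genes, which have an HMG box but no activation domain of their own, Sox5 is known in the mouse to dampen the action of Sox10 on Mitf and Dct. Sox5 (ENSMUSG00000041540, chromosome 6, 143828425 to 144781977) had 52.4, 64.6, 54.3 and 57.9 CPM in Bmi1-deleted libraries 1 to 4, against 66.0, 55.8, 52.3 and 39.9 in control libraries. Control libraries held both extremes and enclosed all the Bmi1-deleted values. The log2 change was 0.10 with a standard error of 0.16 and an interval of −0.25 to 0.45 (adjusted p = 0.940).

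Sox6, the partner of Sox5 in this group (ENSMUSG00000051910, chromosome 7, 115470872 to 116038796), had 128.6, 131.2, 187.9 and 188.3 CPM in Bmi1-deleted libraries 1 to 4, against 170.9, 141.3, 207.5 and 167.6 in control libraries. The values of Bmi1-deleted libraries 1 and 2 were the lowest of all, and those of 3 and 4 lay among the controls. The log2 change was −0.11 with a standard error of 0.16 and an interval of −0.46 to 0.24 (adjusted p = 0.928). Annotated antisense transcripts of both genes were almost unread: Sox5os1 to Sox5os5 had 0 counts in all 8 libraries and Sox6os had 0 to 6.

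Sox2, a pluripotency factor that marks Schwann cell precursors, Merkel cells and dermal papilla cells in skin (ENSMUSG00000074637, chromosome 3, 34650405 to 34652461), had 72.1, 80.2, 60.8 and 52.3 CPM in Bmi1-deleted libraries 1 to 4, against 79.4, 76.2, 50.8 and 47.7 in control libraries. In both groups replicates 1 and 2 were high and replicates 3 and 4 low, and the groups overlapped over most of their range. The log2 change was 0.06 with a standard error of 0.19 and an interval of −0.35 to 0.48 (adjusted p = 0.976). Within each group the libraries ranked by Sox2 in the same order as by the summed Schwann cell and glial genes, which came to 8379, 9113, 7990 and 6819 CPM in Bmi1-deleted libraries, against 7037, 6187, 4985 and 3861 in control libraries. The part of Schwann cell RNA in the Sox2 level was not tested. Of the Merkel cell list 3 of 8 genes passed the filter, and the list summed to 44.9 to 61.4 CPM in Bmi1-deleted libraries and 28.9 to 54.7 CPM in control libraries, most of it Piezo2. Of the dermal papilla list 7 of 14 passed, and the list summed to 267 to 623 CPM in Bmi1-deleted libraries and 383 to 820 CPM in control libraries, most of it Enpp2. The defining Merkel cell factor Atoh1 had 4 counts in Bmi1-deleted library 1 and 0 in the other 7, and the defining dermal papilla protease Corin had 7, 0, 0 and 0 counts in Bmi1-deleted libraries against 0, 1, 9 and 0 in control libraries. The part of either cell type in the Sox2 level was not tested.

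Sox2 lies inside Sox2ot, a long transcript on the same strand. Sox2ot had 49.3 ± 9.03 CPM in Bmi1-deleted libraries and 37.3 ± 5.76 CPM in control libraries, a log2 change of 0.40 (adjusted p = 0.577). Of 9 genes listed as transcribed beside or across the 8 factors, 4 were tested, 0 rose and 0 fell, and their median log2 change was 0.19. Only Sox2ot was under an unadjusted p of 0.05, 1 of 4 beside 8.27% of all tested genes. The list is not a full set of neighbours. Of its 4 tested genes, 2610035D17Rik neither overlaps a factor nor lies within 5 kb of one. Genes that do, such as 1110004F10Rik beside Sox6, Gm10863 beside Sox10 and 2810468N07Rik across Sox8, were not in it. The list includes Gm12688, a noncoding gene upstream of Foxd3 on the other strand, at 17.8 ± 1.66 CPM in Bmi1-deleted libraries and 16.2 ± 2.97 CPM in control libraries.

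Pax3 (ENSMUSG00000004872, chromosome 1, 78101267 to 78197134) had 297.6, 257.4, 397.3 and 463.5 CPM in Bmi1-deleted libraries 1 to 4, against 414.6, 385.6, 463.8 and 482.6 in control libraries. Each Bmi1-deleted library was below the control library of the same number, and the groups overlapped through Bmi1-deleted libraries 3 and 4. The mean was 354 ± 93.8 CPM in Bmi1-deleted libraries and 437 ± 44.5 CPM in control libraries, a log2 change of −0.30 with a standard error of 0.17 and an interval of −0.67 to 0.06 (adjusted p = 0.707). With the replicate block the value was −0.34 with a standard error of 0.11 (adjusted p = 0.130). Among replicates 1 and 2 alone it was −0.53 and among replicates 3 and 4 alone −0.16, but the contrast between these pairs was not tested.

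Melanocyte markers were lowest in the same libraries as Pax3. They summed to 4871, 4533, 8469 and 10073 CPM in Bmi1-deleted libraries 1 to 4, against 8457, 9599, 12440 and 14526 in control libraries, and Bmi1-deleted libraries 1 and 2 were the lowest of all 8 in both measures. The part of melanocyte content in the Pax3 level was not tested. In bulk RNA, fewer cells of a type and less RNA per cell cannot be told apart. With the melanocyte marker level of each library as a covariate, a fit chosen after the data were seen, the log2 change of Pax3 was 0.18 (standard error 0.15). With the fibroblast level it was 0.05 (standard error 0.15), and with the Schwann cell and glial level −0.04 (standard error 0.14). The covariates go along with genotype: the melanocyte level, a mean log2 CPM, was 6.475 to 7.67 in Bmi1-deleted and 7.63 to 8.18 in control libraries. These fits therefore cannot tell genotype from cell content.

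Foxd3 (ENSMUSG00000067261, chromosome 4, 99656299 to 99658622) was the most even of the 8 genes, with an SD of 0.09 on the log2 scale over all libraries. It had 102.9, 97.0, 98.2 and 90.03 CPM in Bmi1-deleted libraries 1 to 4, against 101.9, 100.01, 87.5 and 89.5 in control libraries. The groups were intermixed throughout. The log2 change was 0.03 with a standard error of 0.11 and an interval of −0.21 to 0.28 (adjusted p = 0.977), the narrowest interval of the 8.

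Ratios between 2 genes of the same library do not depend on how libraries are scaled, and 3 of them were compared. The ratio of Pax3 to Sox10 counts was 0.711, 0.548, 0.886 and 0.899 in Bmi1-deleted libraries 1 to 4, against 0.965, 1.09, 1.07 and 1.09 in control libraries. All 4 Bmi1-deleted values lay below all 4 control values. The mean log2 ratio was −0.42 ± 0.34 in Bmi1-deleted libraries and 0.07 ± 0.08 in control libraries, a difference of −0.50 with an exact two-sided permutation p of 0.0286, the smallest that 70 assignments allow, and 0.0857 after Benjamini-Hochberg adjustment over the 3 ratios, which is above 0.05. The ratio was lower in 4 of 4 pairs of the same number. The difference was −0.72 among replicates 1 and 2 and −0.27 among replicates 3 and 4. Pairing by number gave an exact p of 0.125, the smallest that 4 pairs allow. As Sox10 is read in glia as well as in pigment cells, the Schwann cell sums given above belong beside it: among the 4 Bmi1-deleted libraries the ratio was lower the higher that sum, but the control libraries did not follow this order, library 2 having the highest ratio and the second highest sum. The part of Schwann cell RNA in the ratio was not tested.

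The ratio of Mitf to Sox10 was 0.965, 0.801, 1.61 and 1.61 in Bmi1-deleted libraries, against 1.57, 2.22, 2.40 and 2.58 in control libraries. Control library 1 lay just under Bmi1-deleted libraries 3 and 4, and the other control libraries lay above them all. The difference of the mean log2 ratios was −0.86 (0.25 ± 0.52 in Bmi1-deleted libraries and 1.11 ± 0.32 in control libraries, exact permutation p = 0.0857, adjusted 0.129), lower in 4 of 4 pairs. The ratio of Sox9 to Sox10 was 0.116, 0.135, 0.0498 and 0.0754 in Bmi1-deleted libraries, against 0.0851, 0.108, 0.119 and 0.0718 in control libraries, with the groups intermixed. Its mean log2 difference was −0.10 (exact permutation p = 0.857, also after adjustment).

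**Figure D3:**
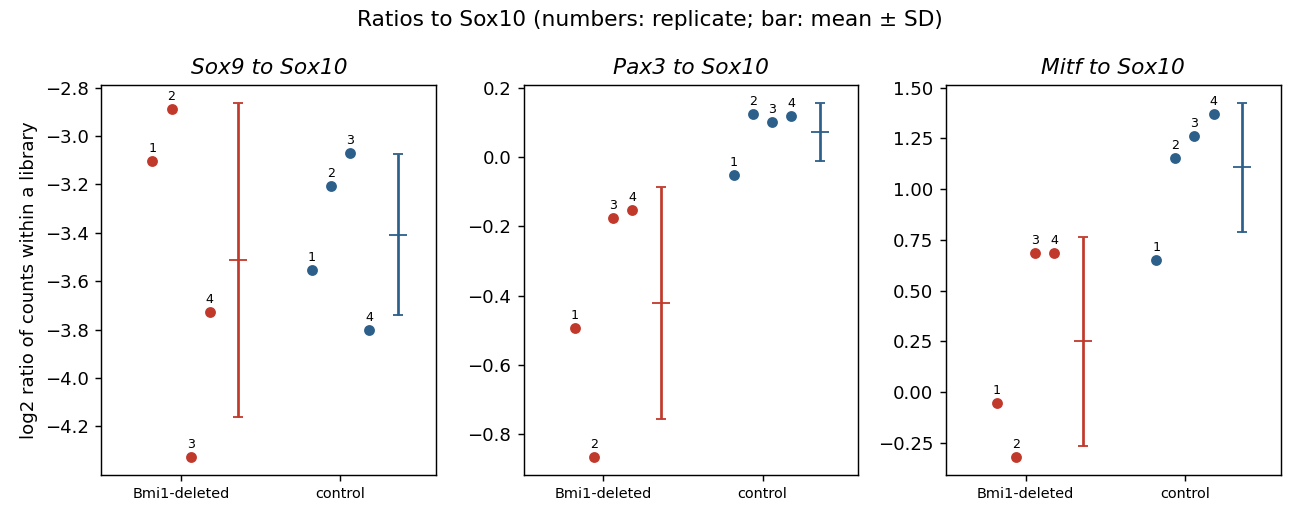
Log2 ratios of counts within each library, Bmi1-deleted left and control right, for Sox9, Pax3 and Mitf over Sox10, with replicate numbers and mean ± SD (n = 4). The Pax3 ratio is the only one of the 3 whose groups do not overlap, with means of −0.42 in Bmi1-deleted and 0.07 in control libraries.

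Genes that Sox10 and Pax3 are known to act on were described beside the factors. Of 20 melanocyte genes downstream of Sox10, Pax3 and Mitf, 17 were tested, 0 rose and 0 fell. At an unadjusted p under 0.05, 11 were lower and 1 higher, beside 8.27% of all tested genes in either direction. The median log2 change of the 17 was −0.68, beside 0.01 for all tested genes. With the replicate block 11 of the 17 fell and 0 rose: Mitf, Dct, Tyr, Tyrp1, Pmel, Mlana, Kit, Ednrb, Met, Slc45a2 and Trpm1. Of all tested genes 0.706% fell and 1.71% rose with the block. Mitf had 583 ± 228 CPM in Bmi1-deleted libraries and 911 ± 219 CPM in control libraries, a log2 change of −0.64 (adjusted p = 0.585, and 0.00242 with the block). Dct, the tautomerase whose promoter also drives the sort reporter, differed by −0.63 on the log2 scale (adjusted p = 0.639, and 0.00261 with the block). Tyr, tyrosinase, had 114 ± 48.2 CPM in Bmi1-deleted libraries and 224 ± 55.3 CPM in control libraries, a log2 change of −0.98 (adjusted p = 0.425, and 0.00513 with the block). Kit, the receptor of stem cell factor, differed by −0.60 (adjusted p = 0.561, and 0.00595 with the block).

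These calls depended on the fit. DESeq2 called Tyr (adjusted p = 0.0292) and not Mitf, Dct or Kit, and edgeR on replicates 1 and 2 alone called Tyr, Dct, Mitf and Kit, with adjusted p of 0.00394 to 0.0133. With the fibroblast level as a covariate the log2 change was −0.08 for Mitf, 0.0024 for Dct, −0.14 for Kit and −0.49 for Tyr, and with the Schwann cell and glial level it was −0.16 for Mitf, −0.10 for Dct, −0.20 for Kit and −0.54 for Tyr. None of these 4 passed in either covariate fit. Both covariates differed between the groups, so these fits cannot tell genotype from cell content.

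Erbb3, a neuregulin receptor shared by melanocyte and Schwann lineages and a direct target of Sox10, was the single gene of the melanocyte list with a log2 change above 0. It had 764 ± 38.7 CPM in Bmi1-deleted libraries and 649 ± 23.0 CPM in control libraries, without overlap, a log2 change of 0.23 (adjusted p = 0.590), and −0.0050 on log2(TPM + 1). Of 20 Schwann cell and glial genes downstream of Sox10, all 20 were tested, 0 rose and 0 fell. At an unadjusted p under 0.05, 10 were higher and 0 lower, beside 8.27% of all tested genes in either direction. The median log2 change of the 20 was 0.47. With the replicate block 10 rose and 0 fell, beside 1.71% and 0.706% of all tested genes. The 2 lists, melanocyte genes downstream of Sox10, Pax3 and Mitf and glial genes downstream of Sox10, thus had medians of opposite sign, −0.68 and 0.47.

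**Figure D4:**
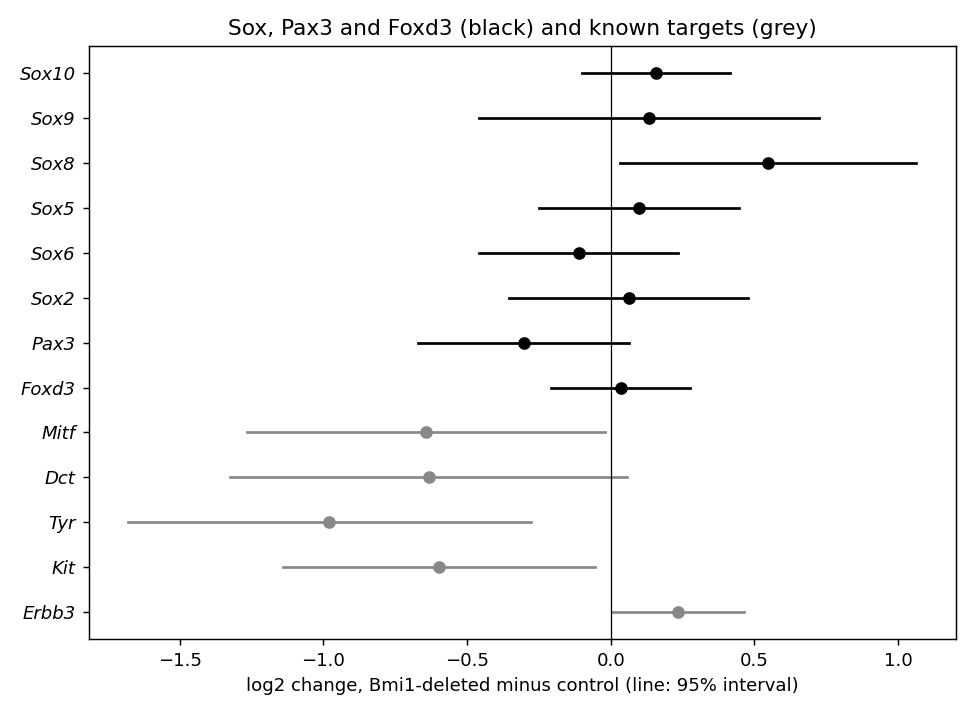
Log2 change (Bmi1-deleted minus control) with its 95% interval for the 8 factors (black) and 5 known targets (grey). The intervals of 7 of the 8 factors include 0, those of Mitf, Tyr and Kit lie below 0, and that of Erbb3 lies above it.

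Other members of the same families were mostly low. Of 13 other Sox genes, 6 were tested, 0 rose and 0 fell, and their median log2 change was 0.28. Only Sox4 was under an unadjusted p of 0.05, 1 of 6 beside 8.27% of all tested genes. Sox4, a SoxC factor, was the most abundant with 224 ± 15.5 CPM in Bmi1-deleted libraries and 177 ± 23.2 CPM in control libraries, without overlap, a log2 change of 0.34 (adjusted p = 0.451). Sox13, the third SoxD gene, had 53.6 ± 17.5 CPM in Bmi1-deleted libraries and 49.4 ± 14.2 CPM in control libraries, a log2 change of 0.12. Of 11 other Pax and Foxd genes 2 were tested, Pax6 and Foxd1, and 0 rose and 0 fell. Foxd1 was under an unadjusted p of 0.05, as were 8.27% of all tested genes. Pax7, the closest paralog of Pax3, had 0 counts in all 8 libraries, as had Pax2, Pax4, Pax5 and Pax8, which allows up to 3 counts per library, or 0.298 to 0.340 CPM. Foxd1, a forkhead factor of stromal cells, had 37, 44, 38 and 39 counts in Bmi1-deleted libraries against 0, 8, 7 and 3 in control libraries, a fitted log2 change of 3.12 with a standard error of 0.80 (adjusted p = 0.219, and 0.0560 with the block). All 4 Bmi1-deleted values lay above every control value, and 5.18% of all tested genes had groups that did not overlap. The control counts lay near the floor, and Foxd1 passed the filter on low counts only through its Bmi1-deleted libraries. The test and the separation therefore give no support for a difference in Foxd1. Pax6 had 7.63 ± 3.01 CPM in Bmi1-deleted libraries and 6.23 ± 1.26 CPM in control libraries, a log2 change of 0.29.

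Of 20 further neural crest specification genes 16 were tested, 0 rose and 0 fell, and their median log2 change was 0.14. At an unadjusted p under 0.05 there were 2 of 16, beside 8.27% of all tested genes. The most abundant of the 16 were Zeb2 and Ets1. Zeb2, a repressor of epithelial genes, had 1231 ± 319 CPM in Bmi1-deleted libraries and 1008 ± 326 CPM in control libraries, a log2 change of 0.29 (adjusted p = 0.857), and Ets1 had a log2 change of −0.02. With the replicate block 2 rose and 0 fell, beside 1.71% and 0.706% of all tested genes. Those that rose were the orphan nuclear receptors Nr2f1, with a log2 change of 1.10 (adjusted p = 0.142, and 0.00398 with the block), and Nr2f2, with 0.87 (adjusted p = 0.331, and 0.00102 with the block).

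**Figure D5:**
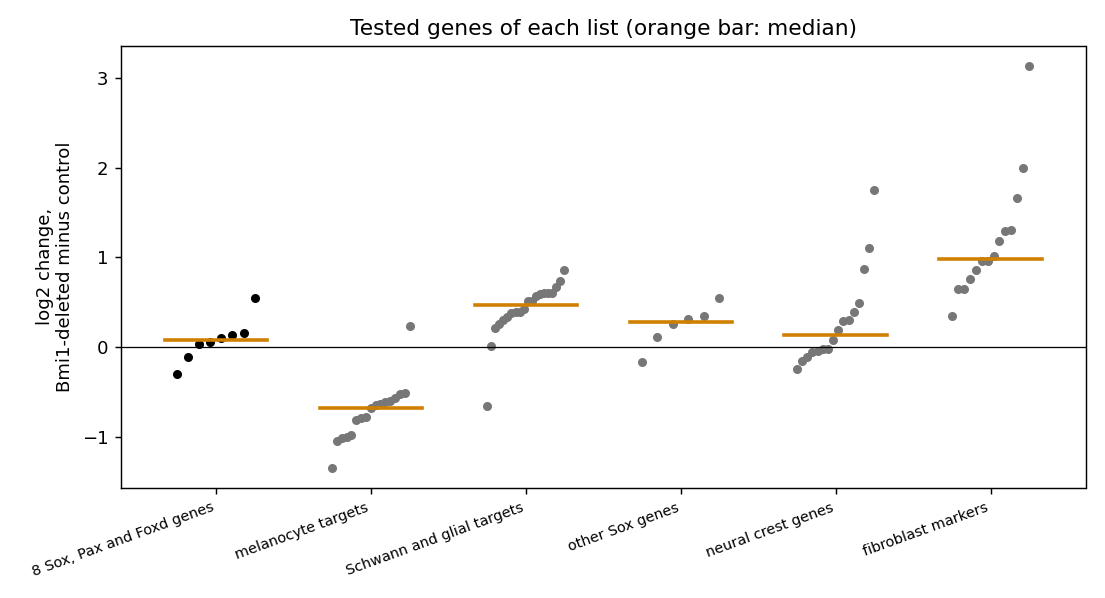
Log2 change (Bmi1-deleted minus control) of each tested gene of the 8 factors, of 4 related lists and of fibroblast markers, with an orange bar at each median. The median is 0.08 for the 8 factors, −0.68 for melanocyte targets, 0.47 for Schwann cell and glial targets and 0.99 for fibroblast markers.

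Markers of other cells were read in the same libraries, and 0 of them passed the threshold in edgeR's test of all 8 libraries without the block. Other fits of Mitf, Dct, Tyr and Kit are given above. At an unadjusted p under 0.05 there were 7 of 14 fibroblast, 4 of 12 keratinocyte, 2 of 7 dermal papilla, 1 of 6 endothelial, 0 of 7 immune, 0 of 3 Merkel cell and 8 of 12 melanocyte markers. Of all tested genes 8.27% were under this p. Fibroblast markers summed to 7359 to 16904 CPM in Bmi1-deleted libraries and 4435 to 7578 CPM in control libraries. Their median log2 change was 0.99 over 14 tested of 16, and 6 rose with the block, beside 1.71% of all tested genes. The most abundant were Col3a1, with 5349 ± 1397 CPM in Bmi1-deleted libraries and 2748 ± 668 CPM in control libraries, and Col1a1, with a log2 change of 1.31.

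The 12 keratinocyte markers had a median of 0.04, with Krt15 at 0.02 and Krt5 at −0.09. With the block 1 rose and 1 fell, beside 1.71% and 0.706% of all tested genes. Dermal papilla markers had a median of 0.11 over 7 tested of 14, with Enpp2 at −0.39 and Wif1 at −1.43. With the block 1 fell, Enpp2, beside 0.706% of all tested genes. Of 8 Merkel cell markers 3 were tested, with a median of 0.28, the most abundant being Piezo2 at 0.28 and Rab3c at 0.61. Endothelial markers summed to 24.2 to 100.2 CPM in Bmi1-deleted libraries and 16.5 to 37.5 CPM in control libraries, with a median log2 change of 0.72, Pecam1 at 1.04 and Cdh5 at 1.29. Immune markers summed to 79.0 to 117 CPM in Bmi1-deleted libraries and 49.1 to 77.7 CPM in control libraries, with a median of 0.57, Cd74 at 0.61 and Cd68 at 0.09. All 12 melanocyte markers, many of them also in the list of melanocyte targets, had a log2 change below 0 with a median of −0.78, Tyrp1 at −0.77. With the block 9 of the 12 fell, beside 0.706% of all tested genes. The part of any of these cells in the values of the 8 factors was not tested.

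By profile over the 8 libraries, each factor was matched to genes of at least 10 CPM by the root mean square difference of log2 CPM, centred per gene. Nearest to Sox10 were Ip6k1 (0.0430) and App (0.0589), to Pax3 Rab5b (0.0483) and Mnt (0.0589), and to Foxd3 Mphosph8 (0.0356) and Gbf1 (0.0363). Nearest to Sox2 were Prrc1 (0.0387) and Ptprs (0.0908), to Sox5 Chka (0.0644) and Srf (0.0754), and nearest to Sox6 was Foxp1 (0.0673). Nearest to Sox8 were Limch1 (0.0868) and Pccb (0.122), and to Sox9 Col17a1 (0.116) and Rnaset2a (0.162). None of the 8 factors was among the nearest 2 of another. Flat genes have near neighbours by this measure for want of variation, and the 8 libraries share their group differences.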

How the data were processed

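The authors deposited estimated counts per gene, as whole numbers; per the submitters' processing notes, Salmon 1.2.1 and mm10 were used. A second deposited table holds log2 of TPM plus 1. The sources used here give no annotation version, strand setting or rounding step. Names, positions and sequences came from GENCODE M21, and 54096 of 54418 identifiers had a symbol.

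Counts were tested in R 4.3.3 with edgeR 4.0.16 (filterByExpr by group, TMM, robust quasi-likelihood F test, two-sided) and Benjamini-Hochberg adjustment over 16011 genes, threshold 0.05. Unless another tool is named, adjusted p-values come from this test. The procedure was tested on simulated data. Standard errors came from the F statistic, and CPM use TMM. Alternatives used DESeq2 1.42.0, limma 3.58.1, other scalings and filters, single libraries left out, marker levels as covariates and the replicate number as a block. After centring by genotype, same-numbered libraries had correlations over genes of 0.124 to 0.186 in all 4 pairs, so the numbers were read as pairing the samples. No label names a litter, batch or day, and for 4 of 8 libraries the best match bore the same number. The fit without the block stayed the main one.

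The members and lists were chosen with earlier results of these data known. The named genes were the 8 members, Bmi1, 7 known targets, list genes past the threshold, the 2 tested genes of each list with the largest mean CPM and the 2 nearest profiles per member; a few of these genes are not reported here. Counts include PCR copies of 2 rounds of 15 cycles, so depth, 8882656 to 10368174 per library, overstates the precision of counting.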

Additional observations from a re-analysis of the deposited data

Results flagged for a closer look

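In each group of 4 libraries, the highest and lowest value of each gene and ratio was compared with its neighbour, 22 groups in all, and chance sets off about 1 in 20 of such looks. The Sox10 level of control library 2, 353 CPM, lay apart below the other 3 control libraries, its gap to the nearest being 0.839 of the range of the group. Without this library the log2 change of Sox10 was 0.09. The log2 ratio of Pax3 to Sox10 in control library 1, −0.052, lay apart below the other 3 control libraries, with a gap of 0.866 of the range. Without this library the difference of the mean log2 ratios was −0.54.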

How the results depend on the processing

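None of the 8 factors passed in any of 21 other settings, over 168 fits, with a lowest adjusted p of 0.105, for Pax3 in replicates 1 and 2. The count of all genes that passed, 15, became 380 with no filter on low counts, 161 with DESeq2, 0 with limma on log2(TPM + 1), 386 with the replicate block, 156 in replicates 1 and 2 only, 64 with the melanocyte level as a covariate and 8 to 45 with 1 library left out (8 without control library 2, 45 without control library 1). The block changed no call among the 8 factors. Signs turned in some setting for 7 of the 8 factors, all but Sox8, and for the Sox9 to Sox10 ratio, and the cause was not tested. On log2(TPM + 1), where the median of all genes was −0.18, Sox2 was −0.15, Sox9 −0.13, Sox10 −0.085 and Foxd3 −0.19. With library totals alone Foxd3 was −0.0093. In replicates 1 and 2 only, Sox2 was −0.030, Sox5 −0.058, Foxd3 −0.015 and the Sox9 to Sox10 ratio 0.38, and in replicates 3 and 4 only Sox9 was −0.46. With the fibroblast level as a covariate Sox2 was −0.31, Sox6 0.20, Sox9 −0.094, Pax3 0.046 and Foxd3 −0.081, while Sox10 was 0.32 and Sox8 0.42. With the Schwann cell and glial level, chosen after the data were seen, Sox2 was −0.34, Sox5 −0.11, Sox6 0.090, Sox9 −0.039 and Foxd3 −0.074, while Pax3 was −0.040, Sox8 0.24 and Sox10 0.28. With the melanocyte level, chosen likewise, Sox2 was −0.45, Sox5 −0.054, Sox6 0.29, Sox9 −0.40, Pax3 0.18 and Foxd3 −0.10, while Sox8 was 0.25 and Sox10 0.31. The marker levels differed between the groups, so the covariate fits cannot tell genotype from cell content. With 1 library left out, Sox2 ran from −0.052 to 0.19, Sox5 from −0.019 to 0.22, Sox6 from −0.21 to −0.0085, Sox8 from 0.39 to 0.76, Sox9 from −0.12 to 0.34, Sox10 from 0.09 to 0.20, Pax3 from −0.47 to −0.18 and Foxd3 from −0.0020 to 0.075. The log2 ratio differences then ran from −0.59 to −0.35 for Pax3 to Sox10, from −1.01 to −0.67 for Mitf to Sox10 and from −0.31 to 0.17 for Sox9 to Sox10. The Pax3 to Sox10 ratio kept its sign throughout, at −0.50 under the block, where 4 pairs allow no exact p below 0.125, and 4 against 3 libraries allow none below 0.0571.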
